A study of Homo sapiens with 6 samples.

Results

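The 10 genes described here read out Wnt/β-catenin signalling in the colon, and were followed in HCT116, a human colorectal carcinoma cell line: AXIN2, LGR5, NKD1, RNF43, ZNRF3, ASCL2, TCF7, LEF1, NOTUM and MYC. They were chosen by name, with earlier results of these data known. They are the rows of the deposited table that carry these symbols, and all 10 were found among its 61806 genes. In all, 6 libraries were compared by poly(A) RNA sequencing, 3 per group: si-NC cells received a control short interfering RNA, and si-STRIP2 cells a short interfering RNA directed against STRIP2, whose product belongs to STRIPAK, a complex that joins a phosphatase to kinases. The labels give the genotype as wildtype for si-NC and STRIP2 knockdown for si-STRIP2, name no further allele or agent, and do not give the sequence or number of the short interfering RNAs, the dose or the time. Nothing there ties the 3 libraries of either group to separate cultures, so the p-values measure only the spread between these libraries, which may be technical. In a bulk culture, fewer cells that express a gene and less of its RNA per cell cannot be told apart.

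Wnt proteins bind a Frizzled receptor and the co-receptor LRP5 or LRP6, which blocks the destruction complex of APC, AXIN1, GSK3B and casein kinase that otherwise marks β-catenin for degradation. Stabilised β-catenin enters the nucleus and activates genes bound by the TCF/LEF factors. In intestinal crypts these targets keep stem cells dividing, and many of them feed back on the pathway. In colorectal cancer the pathway is usually switched on by loss of APC or, as in HCT116, by a stabilising mutation of CTNNB1, the gene of β-catenin. MYC is the best known growth-promoting target of the pathway in the colon.

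The library totals ranged from 17184963 to 21721218 counts, and 15687 genes passed a filter on low counts. The mitochondrial share of counts was 7.01% ± 2.01 for si-NC against 6.00% ± 0.287 for si-STRIP2 (SD, n = 3), a difference with p = 0.5 by a 2-sided exact permutation test that cannot go below 0.1. The targeted gene STRIP2 was at 72.6% of its control level, with FPKM of 3.19, 3.77 and 3.81 in si-NC and 2.71, 2.53 and 2.58 in si-STRIP2 (edgeR adjusted p = 1.62e-05). FPKM scales the fragments of a gene by its exonic length and by the library total, so it is the scale on which genes of different length can be compared. Of 11 markers of colorectal epithelium, EPCAM, KRT8, KRT18 and KRT19 had mean levels above 100 FPKM in both groups, and CDX2, an intestinal transcription factor, rose from 2.51 to 3.28 FPKM (edgeR adjusted p = 0.00285). Of the 7 of these markers that were tested, 4 were lower and 2 were higher, or 85.7%, against 54.8% of all genes tested. Lower on the log2 scale were KRT20 (-1.01, edgeR adjusted p = 0.00935, 8 to 29 counts) and CDH1 (-0.60, edgeR adjusted p = 1.57e-14). So were KRT18 (-0.18, edgeR adjusted p = 0.000278) and EPCAM (-0.11, edgeR adjusted p = 0.0248, with groups that overlapped). KRT19 was higher (0.22, edgeR adjusted p = 1.85e-05), as was CDX2. CDX2 and EPCAM are given with their tests after their values were seen. CDX1 was at 0 counts in all 6 libraries, and VIL1 had between 0 and 3 counts. CDH17 had 4 to 6 counts and GPA33 had 4 to 19, and these 4 markers were not tested. The 15 markers of fibroblasts, leukocytes and endothelium together summed to 2.57 to 3.04 FPKM in si-NC and 2.18 to 2.54 in si-STRIP2, most of it COL1A1, which did not pass the test (edgeR adjusted p = 0.0898).

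In si-STRIP2 cells 4 of the 10 genes were lower, RNF43, AXIN2, ZNRF3 and MYC, and 0 were higher at an adjusted p under 0.05. The other 3 genes tested, NKD1, NOTUM and TCF7, did not pass, and LGR5, ASCL2 and LEF1 had too few counts to be tested. The 7 that were tested had at least 36 counts in every library, so none passed the filter through its higher group alone. In this comparison 54.8% of all genes tested passed, 27.0% lower and 27.8% higher, so 4 of 7 is a share near the background. The median log2 fold change of the 7 was -0.27, against 0.014 over all genes tested. Counts scaled to the library total (CPM) did not overlap between the groups for 6 of the 7, 5 lower and 1 higher. Over all genes tested 59.3% did not overlap, 29.1% lower and 30.2% higher.

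RNF43 had the largest fall of the 10, and 2 start sites of this gene are in the RefSeq promoter table (build GRCh38.p14). They are printed because RNF43 carries the main change and because TCF/LEF factors bind DNA through a CTTTG core. The windows take the 250 bases before each start, and CTTTG, or CAAAG where the core is read on the other strand, is in capitals. Of the upstream window the first 189 bases are printed, since the last 61 are exonic in GENCODE 29 and lie within the deposited span of the gene. The internal window lies within the span of the gene and holds 0 exonic bases in GENCODE 29.

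RNF43 upstream start, chr17:58417596-58417784, minus strand: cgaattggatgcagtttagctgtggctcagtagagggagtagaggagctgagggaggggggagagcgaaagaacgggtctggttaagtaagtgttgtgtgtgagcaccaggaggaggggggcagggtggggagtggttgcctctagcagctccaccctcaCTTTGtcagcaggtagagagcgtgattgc

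RNF43 internal start, chr17:58402722-58402971, minus strand: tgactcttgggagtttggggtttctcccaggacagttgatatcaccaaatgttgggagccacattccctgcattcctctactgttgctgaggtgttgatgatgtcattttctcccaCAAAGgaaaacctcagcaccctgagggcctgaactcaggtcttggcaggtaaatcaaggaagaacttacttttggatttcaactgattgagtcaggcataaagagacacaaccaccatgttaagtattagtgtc

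Each RNF43 window held the core once, at 90 bases before the upstream start and at 134 bases before the internal start. A word this short is common: 42.1% of the 35116 promoter windows of this length held it on either strand. The longer forms CTTTGAT and CTTTGTT, which contain the core, were in neither RNF43 window, and were in 2.26% and 4.50% of all windows. Windows were found for 3 of the 10 genes. The LEF1 window held the core once and neither longer form. All 250 of its bases lie within the deposited span of the gene and are exonic in GENCODE 29. Both TCF7 windows lie within the deposited span of the gene. The one that begins at position 134123368 held the core 2 times, once within CTTTGTT, and holds 0 exonic bases. The one that begins at 134115363 did not hold the core, and 75 of its bases are exonic. A match is a description of the letters only.

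RNF43 and ZNRF3 encode related transmembrane ubiquitin ligases that remove Frizzled receptors from the cell surface, and so damp the response to Wnt. RNF43 (ENSG00000108375, chromosome 17, 58353676 to 58417595, minus strand) had FPKM of 6.15, 6.23 and 5.88 in si-NC and 4.11, 3.43 and 3.58 in si-STRIP2. All si-STRIP2 libraries lay below all si-NC libraries, by more than the spread within either group. The mean fell from 6.09 ± 0.183 to 3.71 ± 0.357 FPKM (SD, n = 3), or by 0.72 on the log2 scale (standard error 0.067, edgeR adjusted p = 4.39e-11). This is a 1.64-fold lower level, and 919 of the genes that passed fell further. Genes that overlap RNF43 held 8.26% as many counts, most of them TSPOAP1-AS1 on the opposite strand.

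ZNRF3 (ENSG00000183579, chromosome 22, 28883572 to 29057488, plus strand) had FPKM of 3.94, 4.38 and 4.05 in si-NC and 3.38, 3.31 and 3.59 in si-STRIP2. The groups did not overlap, but the gap between them was narrower than for RNF43. ZNRF3 changed by -0.27 on the log2 scale (standard error 0.068, edgeR adjusted p = 0.00116), a 1.21-fold lower level. Per exonic base, the ratio of RNF43 to ZNRF3 was 1.56, 1.42 and 1.45 in si-NC, and 1.22, 1.04 and 0.997 in si-STRIP2. The ratio was thus lower in every si-STRIP2 library, and in si-STRIP2 replicate 3 the pair stood at nearly equal levels. The difference between these 2 falls was not tested.

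**Figure D1:**
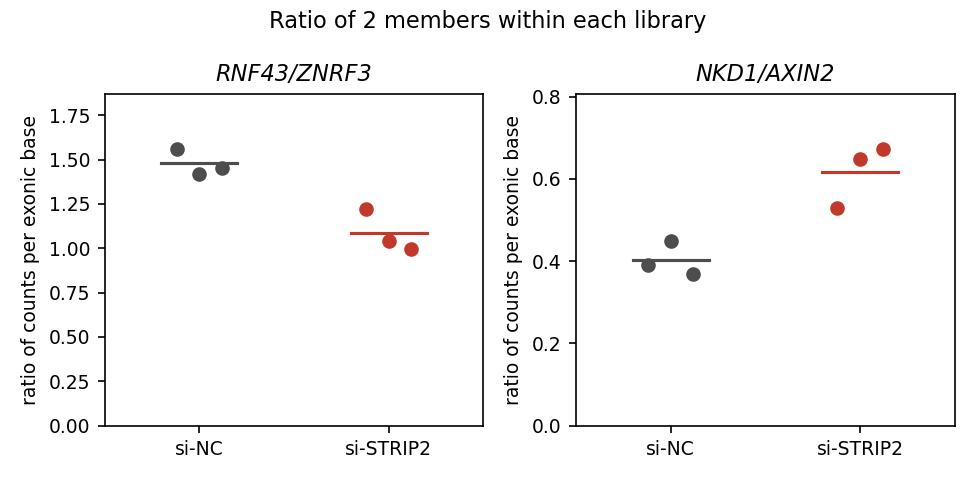
Ratio of counts per exonic base of RNF43 to ZNRF3 (left) and of NKD1 to AXIN2 (right) in each library, with axes from 0; points are libraries and lines are the means of 3. The RNF43 to ZNRF3 ratio was 1.48 on average in si-NC and 1.08 in si-STRIP2, and the NKD1 to AXIN2 ratio was 0.403 and 0.616, with no overlap between groups in either panel. The AXIN2 to NOTUM ratio, which overlapped between the groups, is not drawn.

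AXIN2 and NKD1 encode intracellular brakes on the pathway: AXIN2 is a scaffold of the destruction complex, and NKD1 binds Dishevelled. AXIN2 (ENSG00000168646, chromosome 17, 65528563 to 65561648, minus strand) is widely used as a readout of β-catenin activity. Its FPKM was 2.06, 1.77 and 1.94 in si-NC and 1.61, 1.42 and 1.31 in si-STRIP2. The lowest control stood above the highest si-STRIP2 library, by a margin about as large as the spread within a group. AXIN2 changed by -0.42 on the log2 scale (standard error 0.11, edgeR adjusted p = 0.00194), a 1.33-fold lower level.

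NKD1 (ENSG00000140807, chromosome 16, 50548396 to 50649249, plus strand) lay the other way. Its FPKM was 0.80, 0.79 and 0.71 in si-NC and 0.85, 0.92 and 0.88 in si-STRIP2, so that every si-STRIP2 library stood above every control. NKD1 changed by 0.19 on the log2 scale, with a 95% interval from 0.012 to 0.37 before adjustment, and the gene did not pass after adjustment (edgeR adjusted p = 0.0650). Per exonic base, the ratio of NKD1 to AXIN2 was 0.391, 0.448 and 0.369 in si-NC and 0.528, 0.648 and 0.673 in si-STRIP2. The ratio was higher in every si-STRIP2 library than in any control. The difference between the changes of NKD1 and AXIN2 was not tested. A further ratio that was computed, AXIN2 to NOTUM, overlapped between the groups, with means of 1.96 in si-NC and 1.87 in si-STRIP2. How often the ratio of other gene pairs separates the groups was not tested.

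NOTUM (ENSG00000185269, chromosome 17, 81952507 to 81961840, minus strand) encodes a secreted enzyme that inactivates Wnt by removing its lipid. It had 65, 53 and 44 counts in si-NC and 36, 45 and 42 in si-STRIP2, or FPKM of 1.03, 1.05 and 0.88 against 0.66, 0.88 and 0.84. The groups overlapped, and counts this low left a wide interval. The log2 fold change was -0.33, with a 95% interval from -0.72 to 0.070 (edgeR adjusted p = 0.158). This interval holds 0, and the value of RNF43 lies only just inside its lower end.

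**Figure D2:**
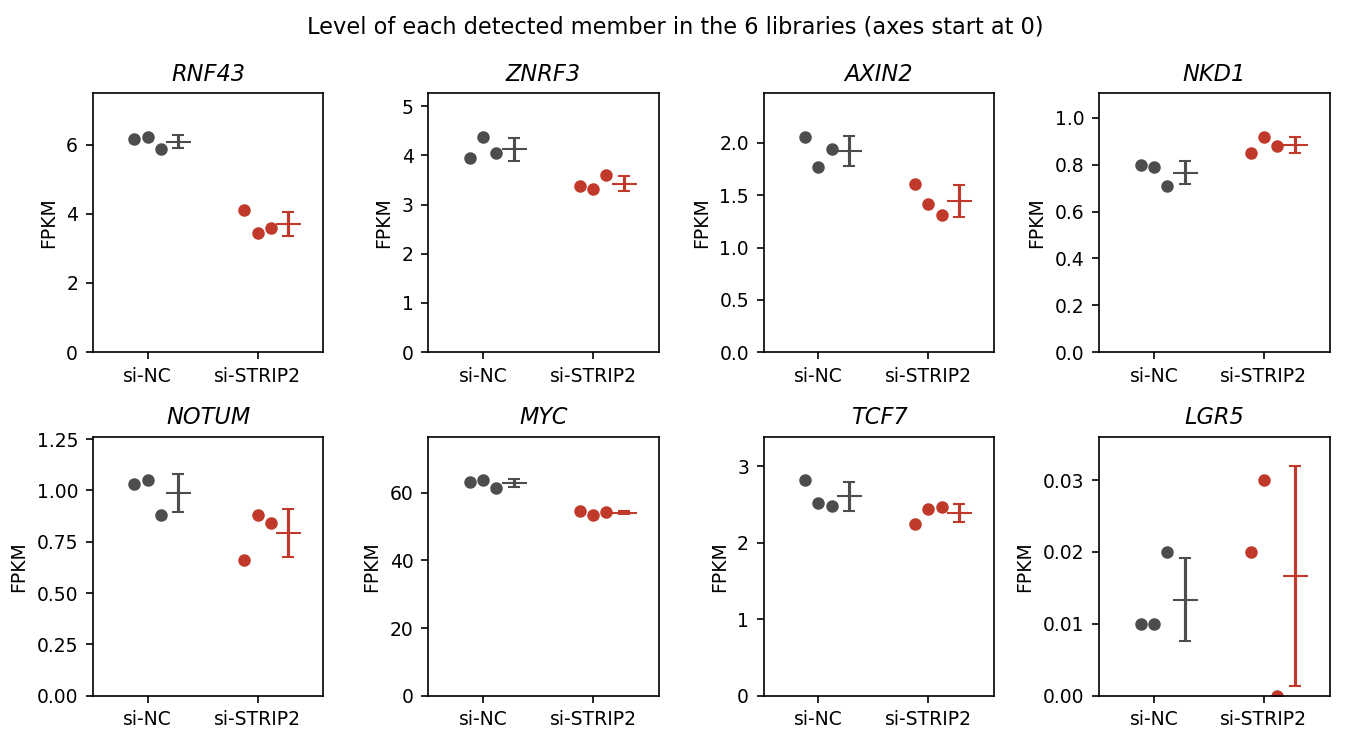
FPKM of the 8 genes with at least 1 count, in si-NC (grey) and si-STRIP2 (red); points are libraries, the horizontal marks beside them are means and bars are the SD (n = 3), and each axis starts at 0 with its own range. RNF43, ZNRF3, AXIN2 and MYC lie lower in all 3 si-STRIP2 libraries, NKD1 lies higher, NOTUM overlaps, TCF7 is all but touching and LGR5 is at 0 to 3 counts.

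MYC (ENSG00000136997, chromosome 8) encodes the transcription factor that drives ribosome production and cell growth. It was by far the most abundant of the 10, at 62.9 ± 1.16 FPKM in si-NC. Its FPKM was 63.31, 63.77 and 61.57 in si-NC and 54.63, 53.53 and 54.39 in si-STRIP2. The libraries of each group stood close together and the groups were well apart. The fall was small, to 86.2% of the control, or -0.22 on the log2 scale (standard error 0.039, edgeR adjusted p = 1.29e-05). Of the genes that passed, 19.9% changed by less than MYC did in either direction.

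TCF7 and LEF1 encode TCF/LEF factors that are themselves targets of the pathway. TCF7 (ENSG00000081059, chromosome 5, 134114681 to 134151865, plus strand) had FPKM of 2.82, 2.52 and 2.48 in si-NC and 2.25, 2.44 and 2.47 in si-STRIP2. The groups were separated only by the difference between 2.48 and 2.47. The log2 fold change was -0.14, with a 95% interval from -0.28 to 0.011 (edgeR adjusted p = 0.111). SKP1, which overlaps TCF7 on the opposite strand, held 162% as many counts, and since no source says whether counting separated the strands, the level of TCF7 is uncertain. LEF1 (ENSG00000138795, chromosome 4, 108047545 to 108168956, minus strand) had 0 counts in all 6 libraries. With 3 counts as the most that a count of 0 allows in a library, its level was at most 0.0258 to 0.0326 FPKM, depending on the library.

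ASCL2, a transcription factor of crypt stem cells, and LGR5, the R-spondin receptor that marks them, were at or near 0. ASCL2 (ENSG00000183734, chromosome 11, 2268498 to 2270588, minus strand) had 0 counts in all 6 libraries, which allows up to 0.0930 to 0.118 FPKM. LGR5 (ENSG00000139292, chromosome 12, 71439798 to 71586310, plus strand) was seen with 1, 1 and 2 counts in si-NC and 2, 3 and 0 in si-STRIP2. No library exceeded 3 counts, so no fold is given, and a difference was not detectable at this depth. Such limits cover counting error only, since reads without molecular identifiers are not independent molecules.

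Ranked by mean FPKM in si-NC, the order was MYC, RNF43, ZNRF3, TCF7, AXIN2, NOTUM, NKD1 and LGR5, with ASCL2 and LEF1 at 0. In si-NC the libraries of neighbouring genes in this order did not overlap, apart from ASCL2 and LEF1, both at 0, and LGR5 was itself within 3 counts of 0. In si-STRIP2 RNF43 and ZNRF3 overlapped, since the lowest RNF43 library was at 3.43 FPKM and the highest ZNRF3 library at 3.59. NOTUM and NKD1 overlapped as well, at 0.66 FPKM for the lowest NOTUM library against 0.92 for the highest NKD1 library.

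**Figure D3:**
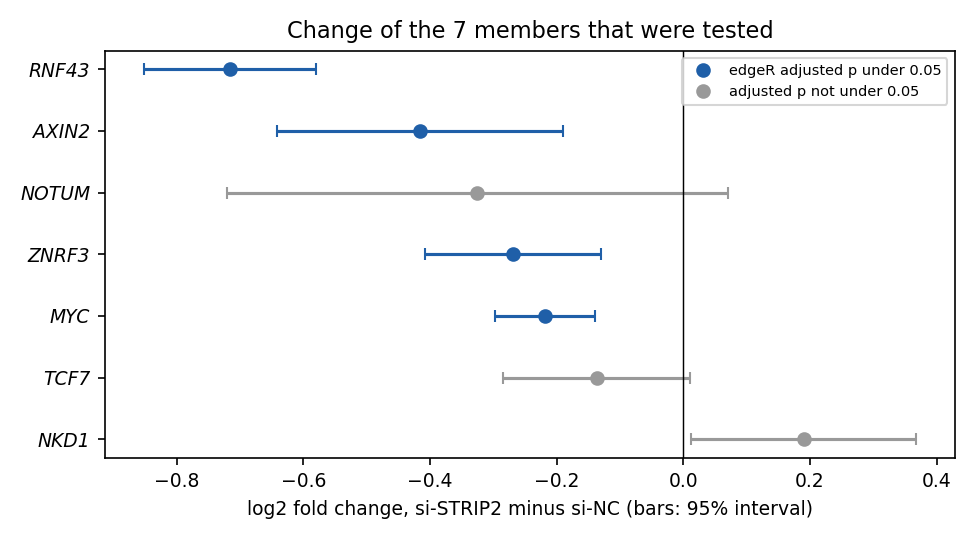
Log2 fold change of the 7 genes tested, si-STRIP2 minus si-NC, with 95% intervals from the edgeR fit before adjustment; blue points passed at an adjusted p under 0.05 and grey points did not. RNF43 (-0.72), AXIN2 (-0.42), ZNRF3 (-0.27) and MYC (-0.22) passed, and NKD1 is the only point right of 0.

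The genes whose pattern came closest to MYC and RNF43 were sought among 6974 genes with at least 5 FPKM, as the root mean square distance between log2 CPM values centred on each gene's own mean over the 6 libraries. Nearest to MYC were GOLM1 at a distance of 0.0084, CTSB at 0.011 and PFDN1 at 0.011. Nearest to RNF43 were ZFAS1 at 0.043, PLEKHA1 at 0.058 and CDKN2B at 0.058. The distance is set mainly by the difference between the groups, and with log2(FPKM + 1) only 1 of the 3 genes near RNF43 remained.

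Upstream of these targets, CTNNB1 itself did not pass the test. β-catenin mRNA stood at 29.59, 30.57 and 28.71 FPKM in si-NC and 29.86, 30.92 and 29.93 in si-STRIP2, with a log2 fold change of 0.027 (edgeR adjusted p = 0.593). Of 18 genes of β-catenin, the destruction complex, Dishevelled and tankyrase, all were tested, and 7 were lower and 4 higher, or 61.1%, near the 54.8% of all genes tested. The scaffold APC (log2 fold change -0.16, edgeR adjusted p = 0.00530), AXIN1 (-0.23, edgeR adjusted p = 0.0110) and the kinases GSK3B (-0.36, edgeR adjusted p = 3.58e-09) and CSNK1A1 (-0.42, edgeR adjusted p = 6.43e-10) were lower. Tankyrase 2, encoded by TNKS2 and known to mark axin for degradation, fell by 0.40 on the log2 scale (edgeR adjusted p = 2.71e-09), while its paralogue TNKS rose by 0.31 (edgeR adjusted p = 6.94e-07). GSK3A (0.15, edgeR adjusted p = 0.0159) and BTRC (0.35, edgeR adjusted p = 4.03e-07) were higher too; these 3 are named after their values were seen. DACT1, which binds Dishevelled, rose from 0.537 to 1.98 FPKM (log2 fold change 1.87, edgeR adjusted p = 3.15e-13), and was the other gene that rose. The median of this list was -0.078.

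Among the ligands, WNT16 was the most abundant Wnt transcript, with FPKM of 106.76, 109.75 and 102.14 in si-NC and 71.98, 73.44 and 75.39 in si-STRIP2. The groups were far apart relative to their spread (-0.53 on the log2 scale, standard error 0.040, edgeR adjusted p = 3.07e-13). WLS, which carries Wnt proteins to the cell surface, was also lower (-0.19, edgeR adjusted p = 0.000440). WNT4 passed as lower (-1.15, edgeR adjusted p = 0.0107), but with 2 to 33 counts its groups overlapped. An overlapping gene held 14.5% as many counts as WNT4. WNT4 entered the test only through si-NC, the group where it was higher (mean of 0.293 FPKM, against 0.127 in si-STRIP2). Its call is therefore uncertain, and it is included in the numbers of lower genes that follow. Of 21 ligand and secretion genes 11 were tested, 4 of them lower and 0 higher, with 2 lower when si-NC replicate 1 or si-STRIP2 replicate 3 was left out. With all libraries, 36.4% of those tested passed, fewer than the 54.8% of all genes tested.

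Of 16 receptors and co-receptors 13 were tested, and 5 were lower and 4 higher, with 3 lower when si-STRIP2 replicate 2 was left out. With all libraries, 69.2% of those tested passed, against 54.8% of all genes tested. FZD6, a Frizzled receptor, went from 39.37, 39.82 and 38.02 FPKM in si-NC to 25.49, 24.61 and 26.34 in si-STRIP2, with no overlap (log2 fold change -0.62, edgeR adjusted p = 1.76e-14). Overlapping genes held 10.2% as many counts as FZD6. FZD7 was lower (-0.42, edgeR adjusted p = 2.43e-05), FZD2 was higher (0.57, edgeR adjusted p = 2.63e-06) and the co-receptor LRP6 was slightly lower (-0.12, edgeR adjusted p = 0.0356) although its libraries overlapped. LGR4, a relative of LGR5 that also binds R-spondins, had 1.87 ± 0.150 FPKM in si-NC and 1.84 ± 0.134 in si-STRIP2 (log2 fold change -0.013, edgeR adjusted p = 0.922). Its paralogue LGR6, at 0.31 FPKM in si-NC, fell by 0.96 on the log2 scale (edgeR adjusted p = 0.00585). It had only 12 to 28 counts per library, and its 95% interval ran from -1.56 to -0.37.

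Of the 14 secreted antagonists and their co-receptors only 4 were tested. DKK1, a blocker of LRP6 and itself a Wnt target, rose from 25.1 to 31.7 FPKM (log2 fold change 0.33, edgeR adjusted p = 2.00e-07). KREMEN1, a receptor for DKK1, fell by 0.43 on the log2 scale (edgeR adjusted p = 7.87e-09). TRABD2A, a Wnt-cleaving protease, had a log2 fold change of -0.82, but TMSB10 overlaps it on the opposite strand with 11971% as many counts, so the value is uncertain.

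In the nucleus, TCF7L2 was the most abundant TCF gene, with FPKM of 39.62, 43.45 and 43.53 in si-NC and 42.70, 40.50 and 41.18 in si-STRIP2. The groups overlapped and the log2 fold change was -0.028 (edgeR adjusted p = 0.588). Of 19 TCF partners, co-activators and co-repressors 18 were tested, 9 of them lower and 3 higher, with a median of -0.18. This is 66.7% of those tested, against 54.8% of all genes tested. The acetyltransferase gene CREBBP fell by 0.50 (edgeR adjusted p = 6.75e-12) and TBL1XR1 by 0.31 (edgeR adjusted p = 1.96e-07) on the log2 scale, while the chromatin remodeller SMARCA4 rose by 0.63 (edgeR adjusted p = 1.30e-14).

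Other published Wnt targets went both ways. Of 32 in the list 26 were tested, and 11 were lower and 7 higher, 69.2% in all, with a median log2 fold change of -0.11. Over all genes tested 54.8% passed, 27.0% lower and 27.8% higher. CCND1, which encodes cyclin D1, had FPKM of 155.05, 159.65 and 150.95 in si-NC and 136.79, 141.67 and 140.49 in si-STRIP2, a small fall without overlap (log2 fold change -0.16, edgeR adjusted p = 0.00221). CDCA7 (0.47, edgeR adjusted p = 1.13e-11) and BMP4 (0.53, edgeR adjusted p = 1.48e-11) were higher. CEMIP was lower (-1.35, edgeR adjusted p = 3.07e-12), but the opposite-strand gene MESD held 719% as many counts. SP5, a target that represses other targets, had 3 counts in each si-NC library and 6, 4 and 6 in si-STRIP2, and was not tested. The list shares 9 genes with the others used here. The deposited annotation places 216 genes under its Wnt signaling pathway term, 8 of the 10 genes among them. Of the other 208, 122 were tested, 49 lower and 29 higher (63.9%, against 54.8% of all genes tested), with a median of -0.11.

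**Figure D4:**
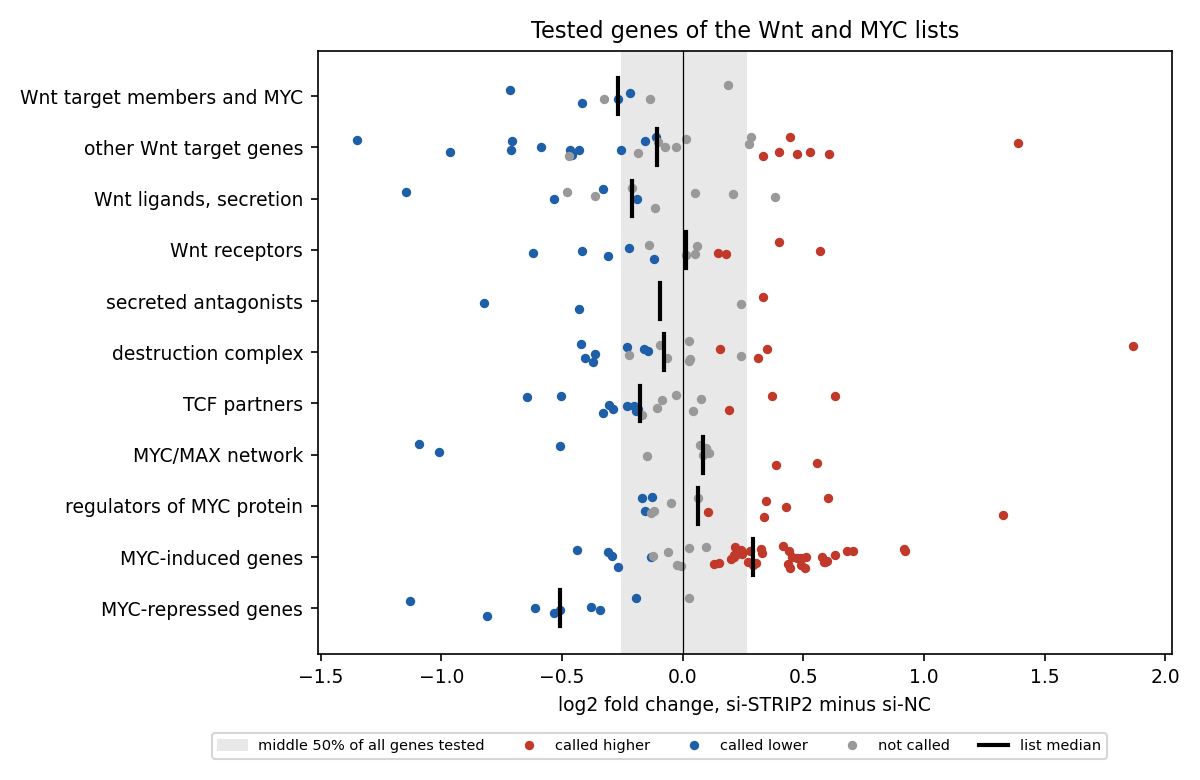
Log2 fold change, si-STRIP2 minus si-NC, of every tested gene in 11 gene lists; red and blue points passed the edgeR test as higher or lower, grey points did not, vertical ticks are list medians and the grey band is the middle 50% of all genes tested (-0.25 to 0.26). The MYC-induced list has its median at 0.29 and the MYC-repressed list at -0.51, outside the band on either side.

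Genes that MYC regulates were described by lists that were chosen with earlier results of these data known. Of 45 genes that MYC is known to induce, mostly genes of ribosome production and growth, all were tested, and 34 were higher and 5 lower in si-STRIP2, while MYC mRNA was lower. Their median log2 fold change was 0.29, and their summed level was 1640 to 1742 FPKM in si-NC and 2098 to 2140 in si-STRIP2. Across all genes tested 27.8% were higher, and the median was 0.014. TCOF1, a factor of ribosomal RNA synthesis, rose from 6.66 to 12.6 FPKM (log2 fold change 0.92, edgeR adjusted p = 2.69e-18). LDHA, the glycolytic enzyme, rose by 0.70 (edgeR adjusted p = 4.08e-15) and NPM1, a nucleolar chaperone, by 0.68 (edgeR adjusted p = 4.71e-14) on the log2 scale. The 49 annotated NPM1 pseudogenes held 2.29% as many counts.

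Of 10 genes that MYC is known to repress 9 were tested, and 8 were lower and 0 higher, with a median of -0.51, where 27.0% of all genes tested were lower. Their summed level was 198 to 207 FPKM in si-NC and 111 to 116 in si-STRIP2. GADD45A fell from 119 to 54.3 FPKM (log2 fold change -1.13, edgeR adjusted p = 1.24e-21). CDKN1A, the cell cycle inhibitor p21, fell by 0.61 (edgeR adjusted p = 1.29e-13) and NDRG1 by 0.53 (edgeR adjusted p = 1.34e-11). Many of these genes also respond to other factors, p53 among them, and the part of MYC in their change was not tested.

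MYC binds DNA together with MAX, and the MXD proteins and MXI1 compete with it for MAX. MAX had a log2 fold change of 0.096 (edgeR adjusted p = 0.134), and genes overlapping it held 18.6% as many counts. Of 12 genes of this network 11 were tested, 3 lower and 2 higher, or 45.5%, against 54.8% of all genes tested. The paralogue MYCL fell from 4.42 to 2.21 FPKM (log2 fold change -1.01, edgeR adjusted p = 4.70e-12), and MXI1 fell from 19.97 to 14.1 FPKM (-0.51, edgeR adjusted p = 8.65e-12). MXD1 had a value of -1.09 (edgeR adjusted p = 1.10e-11), with SNRNP27 overlapping it at 280% of its counts. The 2 that were higher were MXD3 (0.56, edgeR adjusted p = 0.000748) and MLX (0.39, edgeR adjusted p = 4.88e-07), which are named here after their values were seen. Other crypt and stem cell markers were mixed: of 10, 7 were tested, with BMI1 (-0.50, edgeR adjusted p = 3.01e-12) and EPHB2 (-0.46, edgeR adjusted p = 5.14e-08) lower and SOX9 (0.40, edgeR adjusted p = 2.70e-10) higher. Thus 42.9% of the 7 passed, against 54.8% of all genes tested.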

How the data were processed

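HCT116 RNA was sequenced from 3 si-NC and 3 si-STRIP2 libraries (poly(A) selection, directional kit, per the labels' protocols). The submitters' processing notes name bcl2fastq 2.20.0.422, FastQC 0.10.1, cutadapt 1.9.1, HISAT2 2.2.1, HTSeq 0.6.1 and GRCh38.p13. The annotation release and whether counting used strand are not given in the sources used here. The deposited table holds, per the file headers, a raw count and an FPKM value per gene and library. The authors' FPKM values equal count over exonic size and column total, to rounding. Totals of 17184963 to 21721218 counts limit the precision of genes with few counts.

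The counts of all 6 libraries were fitted in R 4.3.3 with edgeR 4.0.16: filterByExpr (minimum count 10), TMM scaling, group as the only term, 2-sided quasi-likelihood F test, Benjamini-Hochberg adjustment over 15687 genes and a threshold of 0.05. Standard errors are the absolute log2 fold change over the square root of F, and 95% intervals use the fit's degrees of freedom. Means ± SD are of FPKM (n = 3). Gene lists are described by counts and medians, with no set test. Alternatives used DESeq2 1.42.0, limma 3.58.1 on log2(FPKM + 1) and log2(FPKM + 0.1), other filters and scalings, a replicate block and leaving out each library. No pair of libraries within a group agreed within sampling noise (chi-square per degree of freedom 2.12 to 16.2). The genes and lists were chosen with earlier results of these data known. Named from the lists were 10 core genes (CTNNB1, APC, AXIN1, GSK3B, TCF7L2, LRP6, LGR4, SP5, CCND1, MAX) and the 3 genes per list with the smallest adjusted p that passed. Promoter windows are from RefSeq, GRCh38.p14.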

Additional observations from a re-analysis of the deposited data

How the results depend on the processing

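RNF43, AXIN2, ZNRF3 and MYC were lower with an adjusted p under 0.05, and NKD1, NOTUM and TCF7 did not pass, under every alternative that tested them (16, or 15 for NKD1 and NOTUM). The log2 fold change ranged from -0.79 to -0.59 for RNF43, -0.49 to -0.26 for AXIN2, -0.31 to -0.21 for ZNRF3 and -0.24 to -0.21 for MYC. The lowest adjusted p was 0.0566 for NKD1, 0.0555 for TCF7 and 0.0931 for NOTUM. STRIP2 ranged from -0.54 to -0.35. The median of all genes stayed between 0.0036 and 0.046. Genes that passed numbered 7238 to 8684, and the MYC-induced genes that were higher 32 to 34.

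With the replicate block, the same 4 genes passed, with 8293 genes in all against 8599. Same-numbered libraries did not deviate together (correlations from -0.099 to -0.0090). No library correlated best with its own number. With 3 libraries per group, such weak correlations cannot settle whether same-numbered libraries were paired, so the block is given only as an alternative.

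Small lists moved, and the cause was not tested. Ligands had 2 lower genes under DESeq2. Receptors had 3 lower under DESeq2 and under limma with either pseudocount. LGR and R-spondin genes had 0 lower with a filter of at least 1 FPKM, where 1 was tested, and 2 with the robust option. With that filter, regulators of MYC protein had 5 lower and crypt markers 5 lower. Differentiation markers had 2 lower with no filter and 0 with the filter of 1 FPKM, where 0 were tested. Leaving out each library gave 2 to 4 lower and 0 to 1 higher ligands, 3 to 4 lower receptors, 1 to 2 lower LGR and R-spondin genes, 2 to 5 lower epithelial markers (2 without si-NC replicate 1), 1 to 2 higher crypt markers (2 without si-STRIP2 replicate 3), 0 to 1 lower differentiation markers (0 without si-NC replicate 1 or si-STRIP2 replicate 2) and 0 to 1 lower markers of other cell types (1 without si-NC replicate 2). Ligands had 1 higher without si-STRIP2 replicate 2. LGR and R-spondin genes had 2 lower without si-NC replicate 3 or si-STRIP2 replicate 3.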

Other observations

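Genes whose products act on MYC protein were also measured. Of 13 in the list all were tested, with 6 higher and 3 lower under si-STRIP2, and with a median log2 fold change of 0.064. Thus 69.2% passed, against 54.8% of all genes tested. USP28, a deubiquitinase that protects MYC, rose from 4.88 to 7.43 FPKM (log2 fold change 0.60, edgeR adjusted p = 2.92e-10). AURKA, a mitotic kinase that binds MYC family proteins, rose from 27.1 to 36.6 FPKM (0.43, edgeR adjusted p = 1.28e-09). SKP2, a ubiquitin ligase subunit that binds MYC, had 1.65 FPKM in si-NC and 4.16 in si-STRIP2 (1.33, edgeR adjusted p = 1.39e-20), with NADK2 overlapping it on the opposite strand at 118% of its counts. MYC protein was not measured.

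Markers of differentiated intestinal cells were close to 0 in both groups, with a sum over 14 genes of 0.71 to 0.99 FPKM in si-NC and 0.37 to 0.69 in si-STRIP2. The only one tested was KRT20, with 8 to 29 counts, at 0.627 FPKM in si-NC and 0.313 in si-STRIP2 (log2 fold change -1.01, edgeR adjusted p = 0.00935). KRT20 entered the test only through si-NC, the group where it was higher. It did not pass without si-NC replicate 1 or without si-STRIP2 replicate 2, which left 0 genes of the list that passed. Among the epithelial markers, CDH1, which encodes E-cadherin and binds β-catenin at the membrane, fell by 0.60 on the log2 scale (edgeR adjusted p = 1.57e-14), KRT18 had a value of -0.18 (edgeR adjusted p = 0.000278) and KRT19 was higher at 0.22 (edgeR adjusted p = 1.85e-05). KRT8 overlaps KRT18 on the opposite strand with 156% as many counts.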
